A study of Mus musculus with 192 samples.

Results

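The miR-302/367 cluster is a group of 5 small RNA precursors that are cut from 1 primary transcript. Its 7 listed mature miRs (mmu-miR-302a-3p, mmu-miR-302a-5p, mmu-miR-302b-3p, mmu-miR-302b-5p, mmu-miR-302c-3p, mmu-miR-302d-3p and mmu-miR-367-3p, from here on without the prefix) were taken by name from a table of 1978 mature miRs, and all 7 were among the 740 miRs with a mean count above 10 that were tested. They were measured by small RNA sequencing in 32 libraries, which are part of 192 samples of a multi-omics study of retinoic acid (RA) differentiation. The cells were wild-type E14 mouse embryonic stem cells (mESCs), a line grown without feeder cells. They had 6, 12, 24, 36, 48, 72 or 96 h of 0.25 µM all-trans RA in N2B27 medium, and the 0 h cells were still in 2i medium with LIF and had no RA. Every time point has 4 libraries. The labels number them by differentiation run: runs 5, 6 and 7 (called set3) cover all 8 time points, run 3 covers 0, 24, 36, 48, 72 and 96 h, and run 4 gives the fourth library at 6 and 12 h (runs 3 and 4 are called set2). RA splits mESCs into extraembryonic endoderm-like (XEN-like) and ectoderm-like cells. In such bulk samples fewer cells of a type and less RNA per cell cannot be told apart.

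A mature miR guides an Argonaute protein to mRNAs that pair with its seed, and the mRNA is then translated less or degraded. The miR-302/367 cluster is transcribed in pluripotent cells, where Pou5f1 and Sox2 bind its promoter, and it is best known from the primed state of pluripotency and from human embryonic stem cells. Its 3p miRs share a seed with the miR-290-295 family, the major miRs of mESCs. Both families are known to hold down inhibitors of the step from G1 to S phase, such as Cdkn1a, and the Hippo kinase Lats2. miR-367-3p has a different seed, which is that of the miR-25 and miR-92 families.

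In the GRCm38 build the 5 precursors lie on chromosome 3, plus strand, within 580 bases (chr3:127545228-127545807), in the order Mir302b, Mir302c, Mir302a, Mir302d and Mir367. The gene Larp7 (ENSMUSG00000027968), which codes for a protein that binds the 7SK RNA, runs across them on the minus strand (chr3:127536714-127553349), and none of the 5 overlaps an annotated Larp7 exon. RefSeq (GRCm38.p6) held a mature sequence for 6 of the 7 members, and miR-302a-3p is named only. These are shown because the seed decides which other miRs a member is counted with below. They are given 5′ to 3′ with the seed, bases 2 to 8, in capitals.
miR-302b-3p: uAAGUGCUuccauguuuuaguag
miR-302d-3p: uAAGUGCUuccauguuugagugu
miR-302c-3p: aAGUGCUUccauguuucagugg
miR-302a-5p: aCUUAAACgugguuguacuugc
miR-302b-5p: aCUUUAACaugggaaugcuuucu
miR-367-3p: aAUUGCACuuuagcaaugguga
miR-302b-3p and miR-302d-3p carry the same seed. The annotated miR-302c-3p starts 1 base further along the same run of letters, so that its seed is shifted. miR-302a-5p and miR-302b-5p each have a seed of their own within the 7 members. miR-302b-3p and miR-302d-3p also share most letters outside the seed. Of the deposited values 19.6% are not whole numbers, and how reads that fit several entries were divided is not settled here, so the split between the 3p miRs is uncertain.

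The 32 libraries held 1046530 to 16869750 counts. The 7 libraries of run 7 from 6 h on stood apart: miR-292a-5p and miR-148a-3p together took 46.0% to 60.3% of their counts, against 3.29% to 45.3% in the other 25 libraries, and 551 to 979 miRs had a count, against 944 to 1265. The shallowest library was that of run 7 at 72 h. Levels are therefore given per run, and the tests of the members are also given without run 7. The unit is normalised CPM, meaning counts relative to the library total (CPM) after scaling by the trimmed mean of M-values (TMM). Values of different miRs should be compared with care, since adapters join some small RNAs better than others.

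Most of the cluster's counts came from 1 arm of 1 precursor. miR-302b-3p made up a median of 61.4% of the summed members over the 32 libraries (57.2% to 74.8%). In the 0 h cells its mean level was 3699 normalised CPM, ahead of miR-302d-3p with 1036, miR-302a-5p with 987 and miR-302a-3p with 389.7. miR-302c-3p had 133 normalised CPM and miR-367-3p 26.8, and miR-302b-5p was the lowest. Each was higher than the next in 4 of 4 libraries at 0 h, except that miR-302d-3p exceeded miR-302a-5p, and miR-367-3p exceeded miR-302b-5p, in 3 of 4. The order of the means was the same at 96 h, where miR-302a-3p also exceeded miR-302c-3p in only 3 of 4 libraries. The other arms of the same precursors were low. In the 0 h libraries miR-302c-5p lay between 11.2 and 42.8 normalised CPM and miR-302d-5p between 1.87 and 27.9, and miR-367-5p did not reach the mean count of 10 and was not tested.

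**Figure D1:**
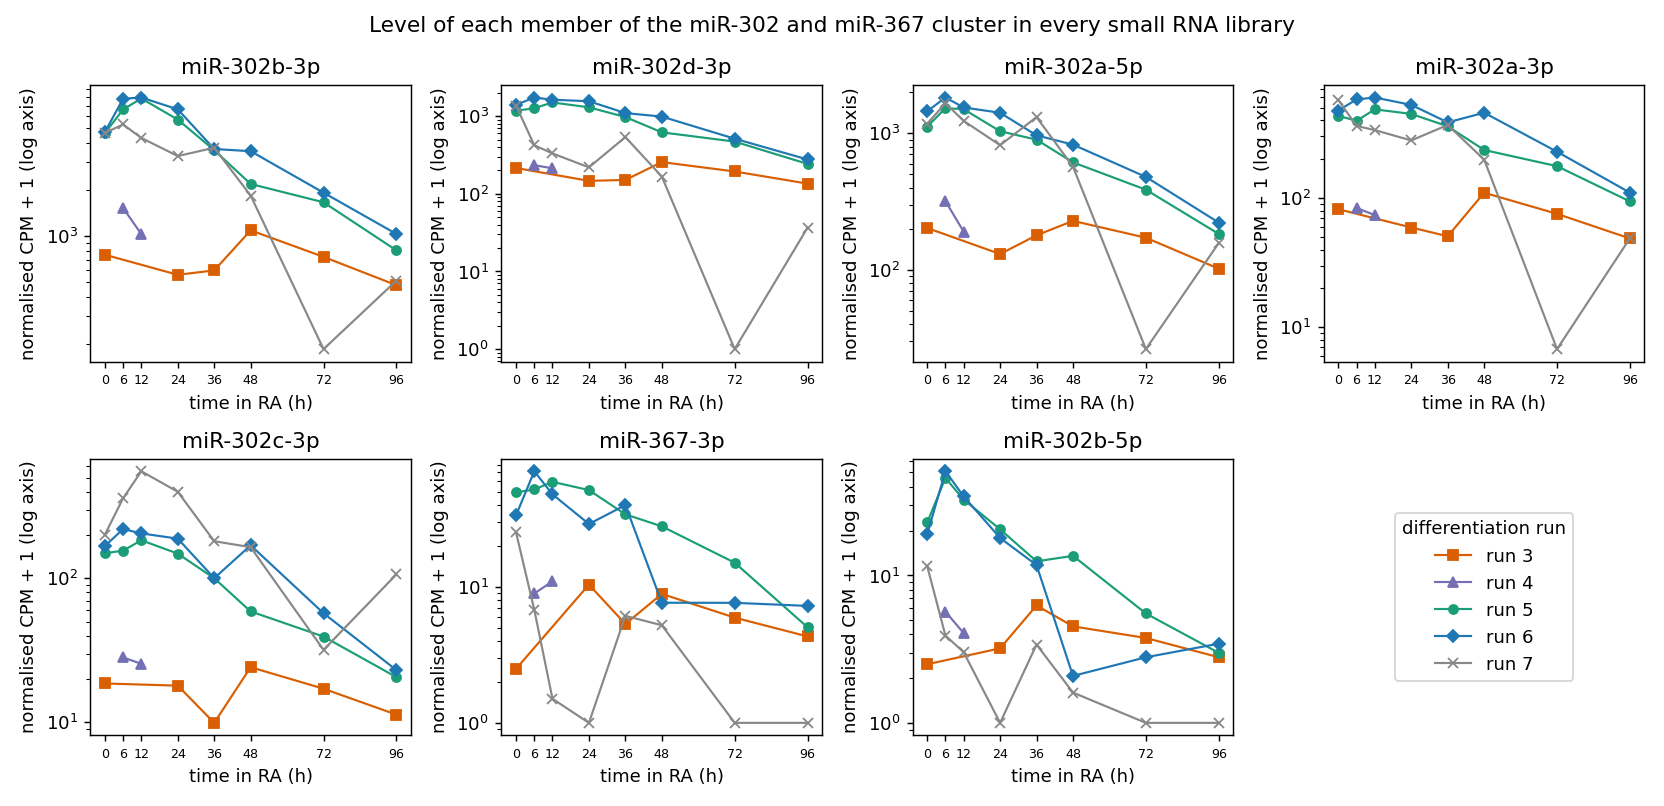
Level of each of the 7 members in every small RNA library (y axis: normalised CPM + 1 on a log axis; x axis: hours in RA; 1 line per differentiation run). Run 3 lies below runs 5, 6 and 7 at 0 h for every member, and the lowest point of miR-302b-3p is that of run 7 at 72 h, with 183 normalised CPM.

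Runs of the 2 sets started at different levels. miR-302b-3p had 754 normalised CPM at 0 h in run 3, and 4653, 4725 and 4664 in runs 5, 6 and 7. The other members were also lower in run 3 at 0 h than in any run of set3, for example miR-302d-3p with 214, against 1171 to 1395, and miR-302c-3p with 17.6, against 148 to 199.9. In run 4, the other run of set2, miR-302b-3p had 1518 normalised CPM at 6 h and 1026 at 12 h, below every run of set3 at the same hours.

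In runs 5 and 6 the cluster went through a maximum in the first 12 h. All 7 members were highest at 6 or 12 h in both runs. miR-302b-3p had 4653, 6623, 7805, 5695, 3603, 2173, 1653 and 805 normalised CPM from 0 to 96 h in run 5. In run 6 it had 4725, 7771, 7918, 6634, 3666, 3548, 1908 and 1029. Both courses passed below their 0 h level between 24 and 36 h. In run 7 the same miR had 4664, 5291, 4328, 3300.3, 3735, 1827, 183 and 512 normalised CPM, and 4 of the 7 members were highest at 0 h. Run 3 followed another course, with 754, 558, 596, 1086, 730.4 and 478 normalised CPM at 0, 24, 36, 48, 72 and 96 h, and 5 of 7 members were highest at 48 h.

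These early maxima did not pass the test. At 6, 12, 24 and 36 h against 0 h none of the 7 members was called by edgeR's quasi-likelihood test (adjusted p under 0.05), and none had an unadjusted p under 0.05 in either direction. Of all 740 tested miRs 0% were called at 6, 12 and 24 h, and 5.95% at 36 h. DESeq2 called none of the members either. With run as a block (every run given its own level in the fit), again 0 of 7 members were called and none had an unadjusted p under 0.05, beside 0.135%, 0.541%, 21.9% and 22.3% of all miRs called at 6, 12, 24 and 36 h. With the block and without run 7, 2 members at 6 h and 1 at 12 h had an unadjusted p under 0.05, all higher. Of all 746 miRs in that fit, 42 at 6 h and 45 at 12 h were higher at the same unadjusted limit. None of these members was called after adjustment, beside 0.268% and 0.804% of all miRs.

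**Figure D2:**
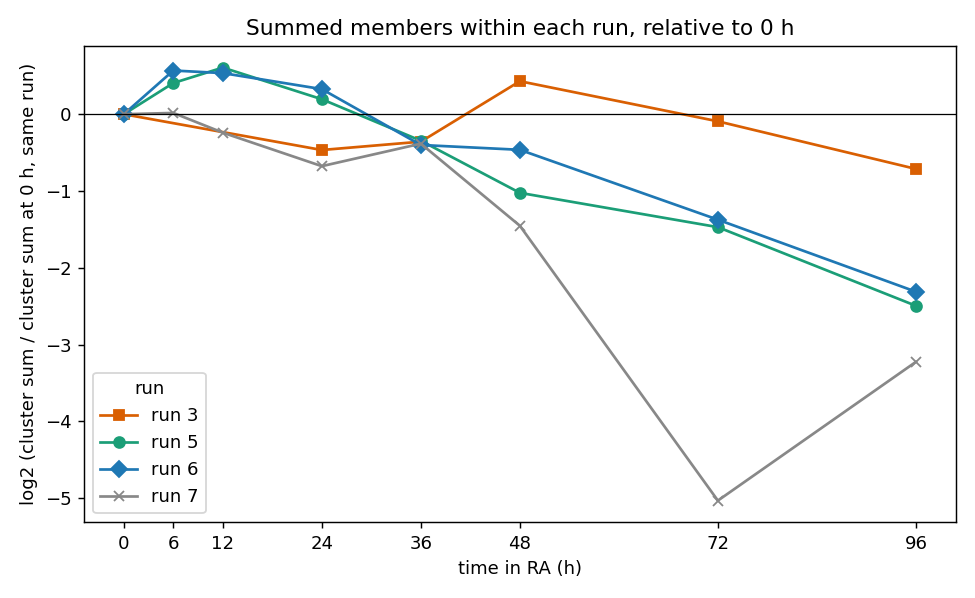
Sum of the 7 members relative to the 0 h library of the same run (y axis: log2 ratio; x axis: hours in RA; 1 line per run with a 0 h library). Runs 5 and 6 lie above 0 from 6 to 24 h and end at -2.49 and -2.31, run 7 ends at -3.23 and run 3 at -0.71.

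By 96 h the cluster was lower in every run that had a 0 h library. The summed members had 776, 1347, 1664 and 856 normalised CPM at 96 h in runs 3, 5, 6 and 7, against 1271, 7593, 8263 and 8011 at 0 h in the same runs. The 96 h level was 0.610 of the 0 h level in run 3 and 0.177, 0.201 and 0.107 of it in runs 5, 6 and 7, so that the drop was smaller in the run that started low. No member's 96 h libraries were fully separated from its 0 h libraries, because the 0 h library of run 3 was as low as late libraries of the other runs. How many of all tested miRs overlap in this way was not counted.

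At 96 h against 0 h, 3 of the 7 members were called lower, beside 12.4% of the 740 tested miRs. miR-302b-3p had 478, 805, 1029 and 512 normalised CPM at 96 h in runs 3, 5, 6 and 7, against 754, 4653, 4725 and 4664 at 0 h. It fell by 2.39 on the log2 scale (SE 0.78, adjusted p = 0.023, edgeR). miR-302a-5p had 100.5, 182, 220.3 and 156 normalised CPM at 96 h, against 201, 1118, 1451 and 1176 at 0 h. It fell by 2.58 (SE 0.81, adjusted p = 0.019). miR-302a-3p had 47.7, 93.1, 109 and 47.9 normalised CPM at 96 h, against 81.0, 432, 475 and 571 at 0 h. It fell by 2.39 (SE 0.85, adjusted p = 0.038). All 3 were lower in 4 of 4 runs, and so were miR-302c-3p and miR-302d-3p. miR-367-3p and miR-302b-5p were lower in 3 of 4 runs. The 4 members not called had log2 fold changes of -1.77 (miR-302c-3p), -2.59 (miR-302d-3p), -2.92 (miR-367-3p) and -2.97 (miR-302b-5p). Their adjusted p lay between 0.069 and 0.21 (edgeR).

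The labels tie libraries of 1 number to 1 differentiation, and with run as a block all 7 members were called. The blocked fit called 7 of 7 members lower at 96 h, beside 26.5% of all tested miRs, and 7 of 7 at 72 h, beside 25.4%. At 72 h the fit without the block called 0 of 7 (10.7% of all miRs), with 2 of 7 at an unadjusted p under 0.05. Of all 740 miRs, 104 were lower at that unadjusted limit. The blocked log2 fold changes at 96 h ranged from -1.80 for miR-302c-3p to -3.35 for miR-302b-5p, with adjusted p between 4.9e-04 and 0.0023. At 48 h the block called 1 member, miR-302b-5p (log2 fold change -2.07, SE 0.74, adjusted p = 0.029), beside 20.7% of all miRs, where the fit without the block called none (4.59% of all miRs). Its counts were small there, and it had 3.52, 12.6, 1.08 and 0.605 normalised CPM at 48 h in runs 3, 5, 6 and 7, against 1.499, 21.9, 18.1 and 10.6 at 0 h.

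Leaving out run 7 made the blocked changes at 96 h smaller for 6 of the 7 members and larger for miR-302c-3p. With the block and without run 7, all 7 members were still called lower at 96 h, beside 23.5% of all miRs, with log2 fold changes from -1.55 (miR-302a-3p) to -2.33 (miR-302b-5p) and adjusted p between 1.6e-04 and 0.012. The 3 called at 72 h in that fit were miR-302a-5p, miR-302b-5p and miR-302c-3p (17.7% of all miRs), and miR-302b-5p was no longer called at 48 h (13.8%). Without the block and without run 7, only miR-302b-5p was called at 96 h (adjusted p = 0.048), beside 17.6% of all miRs. With only the runs of set3, 3 members were called at 96 h (9.29% of all miRs) and 2 at 72 h (7.65%). In set2, run 3 alone covers 0 and 96 h, which allows no test. Leaving out run 5 or run 6 from the fit without the block left no member called at 96 h, where 6.02% and 6.27% of all miRs were.

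The sizes differed between scalings, and less so when set against the median of all miRs. At 96 h the median log2 fold change of the 7 members was -2.58 under TMM, where the median of all tested miRs was 0.17. With plain library totals in place of TMM the members' median was -1.82 and the median of all miRs moved up by 0.56. No member was called there (5.95% of all miRs). At an unadjusted p under 0.05, 2 of 7 members were lower, beside 69 of all 740 miRs. Set against the median of all miRs, the members lay at -2.76 under TMM and at -2.56 under library totals.

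**Figure D3:**
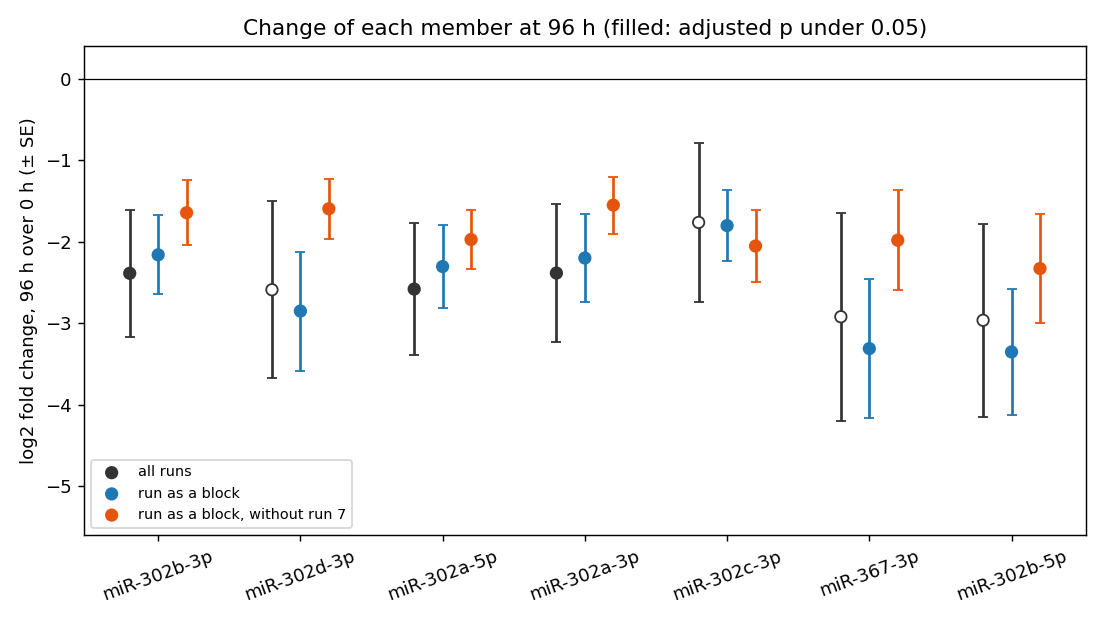
Change of the 7 members at 96 h against 0 h in 3 fits (y axis: log2 fold change ± SE; black: all runs, blue: run as a block, orange: run as a block without run 7; filled points have an adjusted p under 0.05). All 21 values lie below 0, and 3 of 7 points are filled in the fit without the block.

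No step between neighbouring time points passed the test for a member. Over the 6 comparisons of a time point with the one before, 0 of 7 members were called by edgeR or by DESeq2, and 0 had an unadjusted p under 0.05 in edgeR. Of all 740 miRs the test called 0.541% at 36 h against 24 h, 0.135% at 48 h against 36 h, 0.946% at 72 h against 48 h and 0% in the other 3. With run as a block it called 0% at 12 h against 6 h, then 0.27%, 2.3%, 2.3%, 8.51% and 0.811% in the later steps, and again none of the members. miR-302c-3p had an unadjusted p under 0.05 in the blocked fit at 36 h against 24 h (log2 fold change -0.87, adjusted p = 0.45) and at 72 h against 48 h (log2 fold change -1.10, adjusted p = 0.11). Of all 740 miRs in that fit, 21 were lower at the unadjusted limit at 36 h against 24 h, and 110 at 72 h against 48 h.

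Members differed in how they behaved in run 7. miR-302c-3p was highest in that run at 12 h, with 552 normalised CPM, against 24.5, 183 and 204 in runs 4, 5 and 6. At 96 h it had 105 in run 7, against 10.3, 19.6 and 22.05 in runs 3, 5 and 6. miR-302d-3p had 330.0 normalised CPM in run 7 at 12 h, against 212, 1501 and 1626 in runs 4, 5 and 6, so that run 7 lay below the other runs of set3 and above run 4. It had no count in run 7 at 72 h, which allows up to 5.78 normalised CPM, and miR-302b-5p and miR-367-3p had none in run 7 at 24, 72 and 96 h, which at 96 h allows up to 1.22. Such limits and the counts behind them cover counting error only. The share of the cluster held by miR-302c-3p was 0.899% to 2.81% in the libraries of runs 3 to 6 and reached 12.6% in run 7. In run 7 from 6 h on the share of miR-292a-5p and miR-148a-3p was also high, as given above, and its part in these values was not tested.

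By counts, the 2 precursors with both arms among the members favoured opposite arms. The limits given above, on adapters and on the split between the 3p miRs, apply to these ratios too. For miR-302a the 5p arm had more counts than the 3p arm in 32 of 32 libraries, with a median ratio of 5p to 3p of 2.59 (1.81 to 4.62). For miR-302b the 3p arm had more in 32 of 32 libraries, with a median ratio of 3p to 5p of 324 (113 to 3281) over the libraries with a count of both. The log2 ratio of 3p to 5p of miR-302a was -1.94 ± 0.22 at 6 h and -1.33 ± 0.23 at 0 h (SD, n = 4 each). The difference of -0.61 gave p = 0.029 in a two-sided exact permutation test, the smallest p that 4 against 4 libraries allow, and an adjusted p of 0.17 over the 6 time points tested. It was below the run's own 0 h value in 3 of 3 runs. At 96 h the ratio was -1.19 ± 0.35, a difference of 0.15 from 0 h (exact permutation p = 0.54, adjusted p = 0.69). The ratio at 72 h, and that of miR-302b at every time point, were not tested, since at least 1 library of the pair compared had fewer than 10 counts of an arm.

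The seed of miR-302b-3p and miR-302d-3p was supplied mostly by miRs outside the cluster. The following 3 had the same seed and sequences in RefSeq, and are shown with the seed in capitals.
miR-295-3p: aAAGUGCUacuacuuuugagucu
miR-294-3p: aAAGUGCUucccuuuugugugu
miR-291a-3p: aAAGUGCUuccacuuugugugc
These belong to the miR-290-295 family and averaged 42415, 17160.3 and 10625 normalised CPM at 0 h. The 5 tested miRs found with this seed summed to 12677 normalised CPM at 96 h (8268 to 16722), against 74936 at 0 h (53561 to 87988). The cluster's share of that pool was a median of 7.60% at 96 h (3.27% to 10.6%), against 6.93% at 0 h (1.81% to 8.17%). In between, its median was highest at 6 h (4.94% to 11.9%), was 10.3% at 12 h and was lowest at 48 h, with 4.23%. The pool leaves out miR-302a-3p and any other miR with no RefSeq sequence, since 609 of the 740 tested miRs had one. All 3 outside miRs fell at 96 h, miR-295-3p by 3.22 on the log2 scale (SE 0.67, adjusted p = 4.7e-04, edgeR), miR-294-3p with a log2 fold change of -2.09 (SE 0.44, adjusted p = 5.2e-04) and miR-291a-3p with -1.73 (SE 0.56, adjusted p = 0.021). The miR-302b-3p and miR-302d-3p values given above lie within the range of these 3, and no test compared the members with them.

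**Figure D4:**
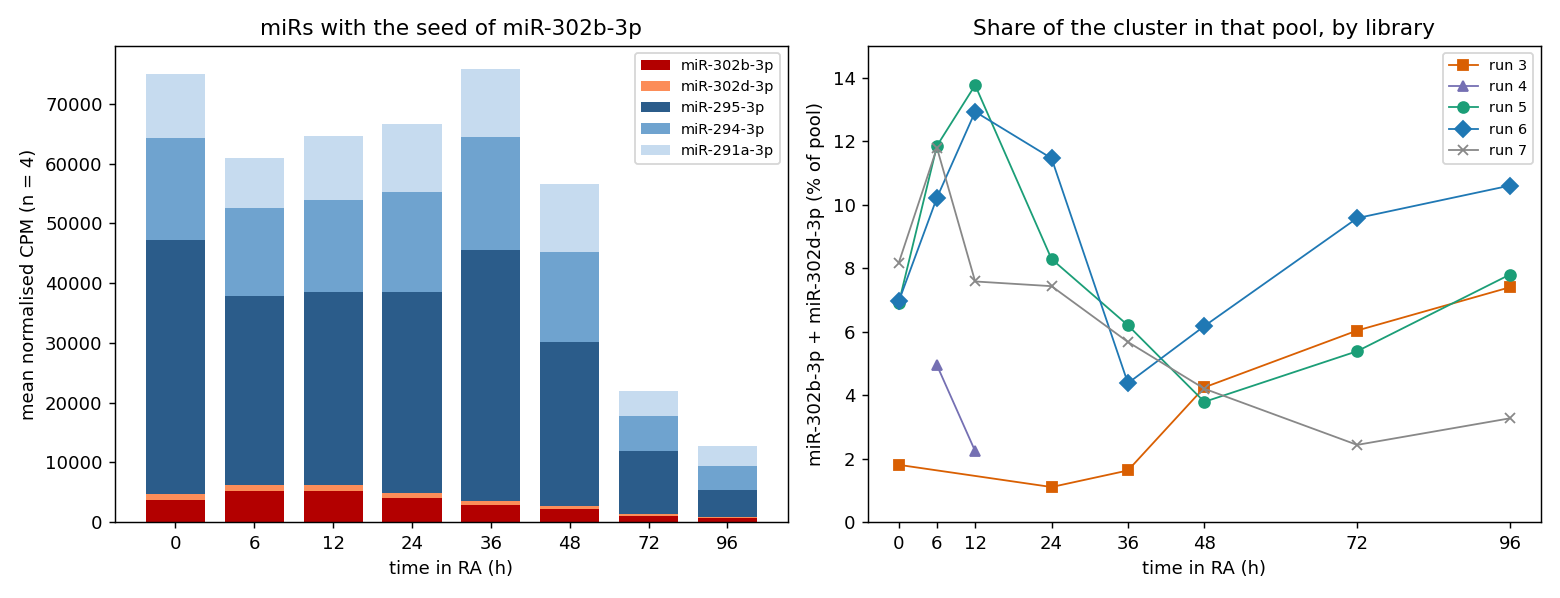
Left, mean normalised CPM (n = 4 libraries) of the 5 miRs that share the seed of miR-302b-3p, stacked, by hours in RA. Right, share of miR-302b-3p and miR-302d-3p in that pool in percent, by library (1 line per run). The stack averages 74936 at 0 h and 12677 at 96 h, and the share at 96 h is 3.27% in run 7 and 7.40% to 10.6% in the other runs.

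miR-367-3p was a minor part of its seed pool at all times. It shared the seed with miR-92a-3p, miR-25-3p and miR-363-3p, which come from the miR-17-92, miR-106b-25 and miR-106a-363 clusters.
miR-92a-3p: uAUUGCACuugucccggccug
miR-25-3p: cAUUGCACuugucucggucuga
miR-363-3p: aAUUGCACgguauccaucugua
Their 0 h means were 15057 (miR-92a-3p), 12023 (miR-25-3p) and 4415 (miR-363-3p) normalised CPM. miR-367-3p made up a median of 0.0101% of the pool at 96 h (0% to 0.0199%), against 0.0898% at 0 h (0.0042% to 0.147%). At 96 h the log2 fold changes were 0.52 for miR-92a-3p (adjusted p = 0.32, edgeR) and -0.42 for miR-25-3p (adjusted p = 0.47), and miR-363-3p fell by 0.94 (SE 0.32, adjusted p = 0.030). The seeds of miR-302a-5p and of the shifted miR-302c-3p were carried by no other miR with a RefSeq sequence in the table. miR-302b-5p shared its seed with miR-302c-5p and miR-302d-5p, the same arm of its neighbours. The blocked fit called both of them lower at 96 h, with log2 fold changes of -2.46 (miR-302c-5p, SE 0.78) and -3.30 (miR-302d-5p, SE 0.77), and the fit without the block called neither.

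The miRs whose course over the 8 time point means was most like the summed members were miR-135b-3p (Pearson r = 0.994), miR-24-1-5p (0.989), miR-204-5p (0.989), miR-378d (0.988) and miR-211-5p (0.985), of 564 miRs with a mean count of at least 50. The points share their libraries and scaling factors. Over the 32 single libraries only 2 of these 5, miR-204-5p and miR-211-5p, were among the 5 most alike, and without run 7 only miR-378d was.

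The labels give the cytoplasmic RNA the same run numbers, 5, 6 and 7 of set3 (24 libraries, 9119525 to 21652592 counts). It showed how the known regulators of the cluster moved. Pou5f1 had 51.8, 57.7 and 79.1 normalised CPM at 96 h in runs 5, 6 and 7, against 1437, 1553 and 1385 at 0 h. Its log2 fold change was 0.04 at 24 h (adjusted p = 0.79, edgeR), -1.20 at 48 h (SE 0.11, adjusted p = 4.1e-09) and -4.54 at 96 h (SE 0.13, adjusted p = 3.3e-18). Sox2 was already lower at 24 h (log2 fold change -0.64, SE 0.09, adjusted p = 3.5e-06) and reached -2.07 at 96 h. Nanog, another pluripotency factor, had 7.30, 11.8 and 14.0 normalised CPM at 96 h, against 1042, 906 and 922 at 0 h. Gata6, the endoderm factor, rose by 5.86 at 96 h (SE 0.24, adjusted p = 1.5e-15).

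Larp7, on the opposite strand of the cluster, was also lower at all 3 time points. It had 76.5, 81.0 and 87.8 normalised CPM in cytoplasmic RNA at 96 h in runs 5, 6 and 7, against 131, 122 and 121 at 0 h. Its log2 fold change was -0.23 at 24 h (adjusted p = 0.027), -0.49 at 48 h and -0.61 at 96 h (SE 0.08, adjusted p = 9.0e-07). In the small RNA libraries of runs 5, 6 and 7 the log2 ratio of the summed members at 96 h to 0 h was -2.49, -2.31 and -3.23. The 2 measures come from different libraries and were not compared by a test.

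Targets that others have reported for the miR-302 family in mouse or human cells moved in both directions. Of 17 listed, 14 were tested in cytoplasmic RNA. At 96 h, 5 were called higher, 5 were called lower and 4 did not pass the test, beside 33.3% higher and 34.4% lower of the 11675 genes tested. Both counts at 96 h were thus near the share of all genes. The median of the 14 was 0.13 on the log2 scale, and that of all genes was -0.02. At 48 h, 7 were higher and 5 lower (28.4% and 28.6% of all genes), and 4 were higher without run 6. At 24 h, 3 were higher and 6 lower (21.2% and 22.6%).

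Lats2, the Hippo kinase, had 68.1, 74.9 and 70.9 normalised CPM at 96 h in runs 5, 6 and 7, against 7.35, 7.40 and 8.93 at 0 h. It was called higher at all 3 time points and rose by 3.16 at 96 h (SE 0.12, adjusted p = 2.0e-16). Rhoc, a small GTPase, rose by 2.92 at 96 h (SE 0.15), the kinase Akt1 by 1.98 (SE 0.09) and Mbd2, which binds methylated DNA, by 0.74 (SE 0.10). The fifth was Pafah1b1, a dynein regulator, with 0.31 (SE 0.09). Of the other Hippo genes listed, Stk4 fell by 0.32 at 96 h (SE 0.09) and Mob1b had a log2 fold change of 0.02 (adjusted p = 0.90).

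Cdkn1a, the cell cycle inhibitor, was lower throughout. It had 489, 454 and 471 normalised CPM at 0 h in runs 5, 6 and 7, then 99.7, 89.5 and 86.4 at 24 h, 71.9, 72.9 and 76.6 at 48 h and 135, 146 and 162 at 96 h. The log2 fold change at 96 h was -1.67 (SE 0.10, adjusted p = 2.5e-12). Tiam1, an activator of Rac, fell by 1.09 at 96 h (SE 0.12) and Tob2 by 0.38 (SE 0.08). Lefty1 and Lefty2, which block Nodal signals, differed in their course. Lefty1 rose by 4.70 at 48 h (SE 0.31) and had a log2 fold change of 0.24 at 96 h (adjusted p = 0.52), and Lefty2 fell by 2.95 at 96 h (SE 0.59). The 3 targets not tested there were read from total RNA of replicates 1 and 2, whose titles name no differentiation run. Tgfbr2 had 27.5 and 25.1 normalised CPM at 96 h, against 15.7 and 7.64 at 0 h. Nr2f2 had 14.3 and 34.3, against 1.25 and 1.09, and Rbl2 had 5.21 and 6.48, against 5.10 and 5.79. Replicate 3 gave a further 0 h library but none at 96 h. It had 4.63 (Tgfbr2), 0.076 (Nr2f2) and 11.9 (Rbl2) normalised CPM, so that Rbl2 was higher there than at 96 h.

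**Figure D5:**
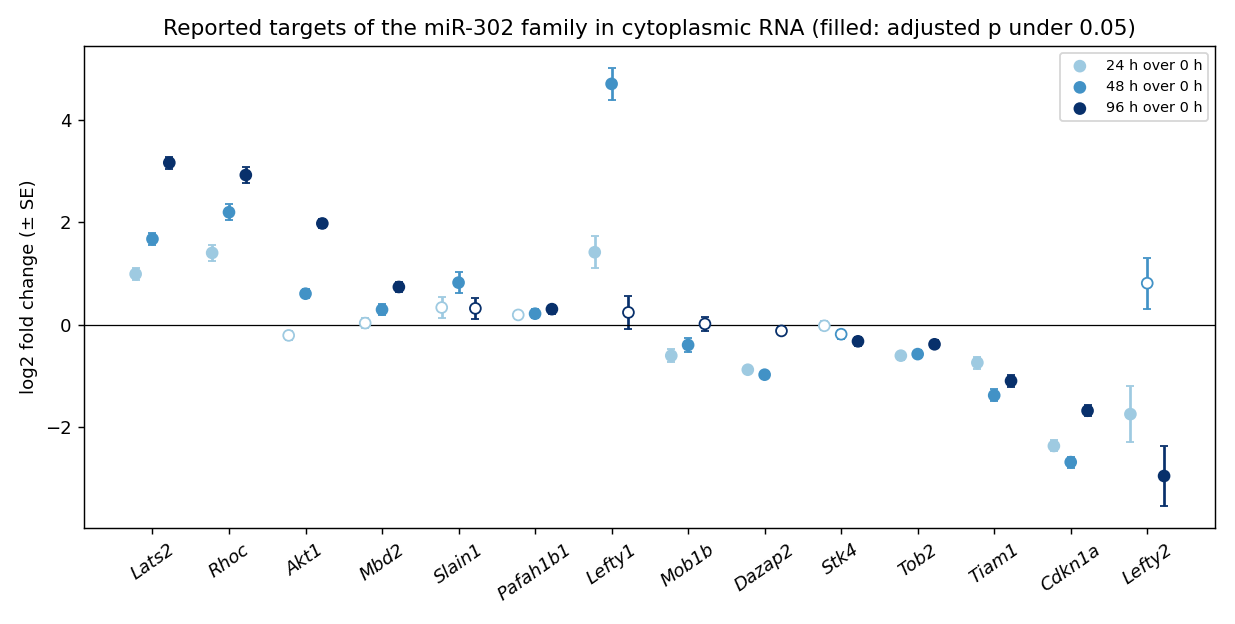
Change of the 14 tested targets of the miR-302 family in cytoplasmic RNA at 24, 48 and 96 h against 0 h (y axis: log2 fold change ± SE, 3 libraries per time point; filled points have an adjusted p under 0.05). Lats2 and Rhoc lie above 0 at all 3 time points, Cdkn1a, Tiam1 and Tob2 below 0, and Lefty1 peaks at 48 h with 4.70.

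The markers of cell state changed over the same hours. All 5 tested naive pluripotency genes (of 8 listed) were lower at 48 and 96 h, with medians of -2.74 and -6.07 on the log2 scale. Klf2, Nr0b1 and Zfp42 were listed but not tested in cytoplasmic RNA, though they were not low in total RNA at 0 h. There Zfp42 had 592, 780 and 542 normalised CPM at 0 h, against 27.6 and 42.5 at 96 h. Klf2 had 451, 238 and 179, against 9.49 and 5.29, and Nr0b1 had 132, 131 and 85.5, against 0.259 and 4.34. Of 6 tested formative genes, 5 were higher at 24 h and at 48 h and 2 at 96 h. The sixth, Lef1, was lower at all 3 time points (log2 fold change -2.02, -0.52 and -2.72 at 24, 48 and 96 h). The other 3 did not pass the test at 96 h. Of all 11675 genes tested, 21.2%, 28.4% and 33.3% were higher at 24, 48 and 96 h, and 22.6%, 28.6% and 34.4% lower. The 2 of 6 formative genes higher at 96 h were thus near the share of all genes. The 7 XEN-like genes were all higher at 96 h, and their summed level was 7212 to 11404 normalised CPM, against 57.3 to 58.7 at 0 h. Lamb1 made up most of that sum, with 5678, 6437 and 9216 normalised CPM at 96 h in runs 5, 6 and 7. It had 32.8, 40.7 and 37.4 at 0 h. Both tested ectoderm-like genes (of 5 listed) were also higher at 96 h. Prtg, Sox1 and Zic1 were not tested in cytoplasmic RNA, and each was higher in total RNA at 96 h than at 0 h. Prtg had 182 and 324 normalised CPM there at 96 h, against 25.4, 17.3 and 20.8 at 0 h. The 3 tested fibroblast genes (of 5 listed) summed to 189 to 222 normalised CPM at 96 h, against 3.30 to 4.93 at 0 h. Acta2 was at 0 in the 0 h cells and alone had 132, 145 and 142 normalised CPM at 96 h in runs 5, 6 and 7. Of the genes not tested, Thy1 went the other way in total RNA, with 0.369 and 0.917 normalised CPM at 96 h. It had 0.944, 3.04 and 1.29 there at 0 h. Postn had 0.628 and 3.48 at 96 h, against 0 in each 0 h library. The part of these changes in cell state in the cluster's levels was not tested.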

How the data were processed

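Small RNA libraries were trimmed (Trimmomatic), merged to a consensus read, mapped with Bowtie 1.0.0-1 and quantified by the authors with the mirdeep2 scripts against mature miRs of miRBase (genome mm10/GRCm38). Their deposited read counts are estimated counts, since 19.6% of entries are not whole, and were rounded. The highest value over precursors was taken for each mature miR. Cytoplasmic and total RNA tables hold expected counts that the authors made with RSEM and deposited. Here, edgeR 4.0.16 (R 4.3.3; TMM, mean count above 10, quasi-likelihood test, Benjamini-Hochberg adjustment over all features, threshold 0.05) was fitted with time as a factor over all 32 small RNA libraries, or over 24 cytoplasmic ones. SE is the log2 fold change divided by the root of F. Arm ratios were tested by exact permutation (scipy 1.17.1).

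The text names the 7 members, their other arms, the 3 most abundant miRs of each shared seed, the 5 miRs most like the cluster, Larp7 and the gene lists. Members and lists were chosen with earlier results of these data known. Alternatives were DESeq2 1.42.0, other scalings and filters, run as a block, set3 alone, each run left out and counts summed over precursors. The labels name the run as a differentiation run. Deviations from the time point means correlated with a median r of 0.72 between libraries of 1 run (94 of 100 pairs over 0.1), and -0.11 between runs. The closest 2 libraries of a time point differed by 5.48 times the sampling noise. In simulated counts for 96 h against 0 h, 39.3% of 4-fold and 7.62% of 2-fold changes were recovered in small RNA. A change that did not pass the test there may thus still be present. The columns with the authors' own comparisons, and tables of other assays, were not used.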

Additional observations from a re-analysis of the deposited data

Results flagged for a closer look

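In 5 of 56 groups of 4 libraries (7 members at 8 time points) 1 library lay far from the other 3 by Dixon's criterion, and chance gives about 1 in 20. Run 3 was low for miR-302b-3p at 0 h (754 normalised CPM, the others 4653 to 4725) and at 36 h (596, the others 3603 to 3735), and for miR-302a-3p at 36 h (49.6, the others 358 to 384). Run 7 was high for miR-302c-3p at 96 h (105 normalised CPM, the others 10.3 to 22.05). Run 5 was high for miR-367-3p at 48 h (27.0 normalised CPM, the others 4.24 to 7.91).

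The summed members moved in opposite directions in the 2 sets at 48 h against 0 h. In run 3, the only run of set2 with both times, the log2 ratio was 0.43, and in runs 5, 6 and 7 of set3 it lay between -1.45 and -0.46. The difference was not tested.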

How the results depend on the processing

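All 294 recomputed fold changes of the members at 48, 72 and 96 h kept their negative sign. The number of members called lower at 96 h was 3 in the fit without the block and 5 with DESeq2 (105 of all 740 miRs). It was 0 with library totals and 1 without the filter on low counts (84 of 1640 miRs). It was 7 with the replicate block and 7 with the block and without run 7 (a setting chosen after seeing the data). It ranged from 0 to 3 when 1 run was left out: 0 without run 5 or run 6, 1 without run 7. At 72 h it was 0 without the block, 1 with DESeq2 (87 of all 740 miRs) and 2 in set3 alone. It was 7 there with the replicate block and 3 with the block and without run 7, and at 48 h the block gave 1. The blocked fit changed no other count of members. The cause of these differences was not tested. The fits with a run left out, and set3 alone, also held fewer samples.

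For the arm ratio of miR-302a the difference of 96 h from 0 h ranged from -0.0058 to 0.41 when 1 run was left out, with the highest value without run 7. In cytoplasmic RNA, leaving out 1 run gave 4 to 7 targets higher at 48 h, 1 to 2 regulators lower at 24 h, 0 to 1 formative genes lower at 48 h and 2 to 4 formative genes higher at 96 h. DESeq2 size factors gave 0 formative genes lower at 48 h, and no filter gave 4 higher at 96 h. Among Larp7, the regulators and the targets (57 values) the replicate block added 1 call, Pafah1b1 at 24 h, and it also called the XEN-like genes Lamb1, Sox17 and Pdgfra at 24 h. With 1046530 counts, the library of run 7 at 72 h limits the low members most.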
